A study of Mus musculus with 69 samples.

Results

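WT cells of WT + WT mosaic gastruloids were compared at 96 h and 72 h after aggregation. Every library that the labels place at either time, in a WT clone and in gastruloids made of WT cells only, was taken, which gave 12 of the 69 libraries of the series, 6 per time point. They came from a pair of WT mouse embryonic stem (mES) clones of the E14tg2A line, with 3 replicates per clone and time. No measured value entered this choice.

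Gastruloids are aggregates of mES cells that break symmetry and elongate in culture. WT–mCherry cells carried an H2B-mCherry transgene driven by the EF1α promoter, and WT–emiRFP cells an H2B-emiRFP670 transgene driven by CAG; each line was 1 clone, so clone and reporter cannot be told apart. Equal numbers of both clones were aggregated in N2B27 medium, all gastruloids received the Wnt agonist ChIR from 48 h to 72 h, and the clones were separated by fluorescence-activated sorting before poly(A) RNA sequencing. The 72 h libraries therefore stand at the end of the Wnt pulse and the 96 h libraries a day after its withdrawal. Both clones of a replicate and time were sorted from the same gastruloids, so the 12 libraries represent 6 gastruloid pools, 3 per time. The comparison asks which genes distinguish WT cells on either side of this day, the period in which the study followed cell competition between WT and p53-deficient cells.

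In the mouse embryo, Wnt, Nodal and FGF signals convert the posterior epiblast into the primitive streak, through which cells lose epithelial contacts and become mesoderm. Posterior progenitors that keep the T-box factor T (Brachyury), Cdx factors and Wnt3a then feed the presomitic mesoderm, where Tbx6 and Msgn1 set paraxial fate and a Notch-dependent oscillator times the somites. Hox genes are activated in their chromosomal order during the same period, and retinoic acid made by somites is cleared from the tail bud by Cyp26a1.

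Total counts ran from 44049258 to 57445005 per library (median 52789107), and mitochondrial transcripts took 0.791% to 1.531% of them. Values are normalized counts, that is, counts divided by a library size factor, given as mean ± SD of 6 libraries unless stated. The sorted clones were told apart by their H2B transcripts: H2bc14 averaged 68.5 in the 6 WT–mCherry and 8838 in the 6 WT–emiRFP libraries, with ranges that did not overlap. The labelled identity at 72 h was checked on its markers, with Pou5f1 at 29400.0 ± 3028, T at 46385 ± 7618, Sox2 at 5155 ± 1292, Fgf5 at 2196 ± 687 and Otx2 at 1006 ± 269, all well above the detection limit. Markers of other cells were low. The 10 visceral endoderm genes summed to 1167 to 1930.1 per library at 72 h and 1413 to 2163 at 96 h, with the defining genes Afp, Ttr and Apoa1 at means of 5.25 or less. The 9 trophoblast genes summed to 1296 to 1715 and 3086 to 3829, most of it Tfap2c, while the defining gene Tpbpa averaged 3.85 and 3.36. The 9 genes of 2-cell-like cells, a rare totipotent-like state of mES cultures, summed to 539 to 1149 and 219 to 496.

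Between 72 h and 96 h the WT cells gained transcripts of the presomitic mesoderm and tail bud and lost transcripts of the primed epiblast. Presomitic genes, Hox genes of paralog groups 1 to 9, the retinoic acid enzymes Aldh1a2 and Cyp26a1 and the ligands Fgf3, Wnt3a and Wnt5a rose, while Fgf5, Pou3f1, Otx2, Wnt3, Eomes and Cdh1 fell. Of 18124 genes tested, 5392 were higher at 96 h (29.8%) and 5119 lower (28.2%) at an adjusted p under 0.05, in edgeR's quasi-likelihood test with clone as covariate, and each list count below is to be read against these shares. Rises and falls were nearly equal in number and unlike in size. At 2-fold or more 1472 genes rose and 796 fell, at 8-fold or more 306 rose and 13 fell, and at 16-fold or more 162 rose and 1 fell. The median log2 fold change of all tested genes was 0.0013. Size factors centre each library on a median ratio, so this median and the near-equal numbers are in part set by the scaling. The first principal component of the 2000 most variable genes held 71.3% of their variance, with the 72 h libraries between -38.2 and -32.3 and the 96 h libraries between 30.6 and 39.8. In bulk libraries fewer cells of a kind and less RNA per cell cannot be told apart, which holds for every gene below.

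**Figure D1:**
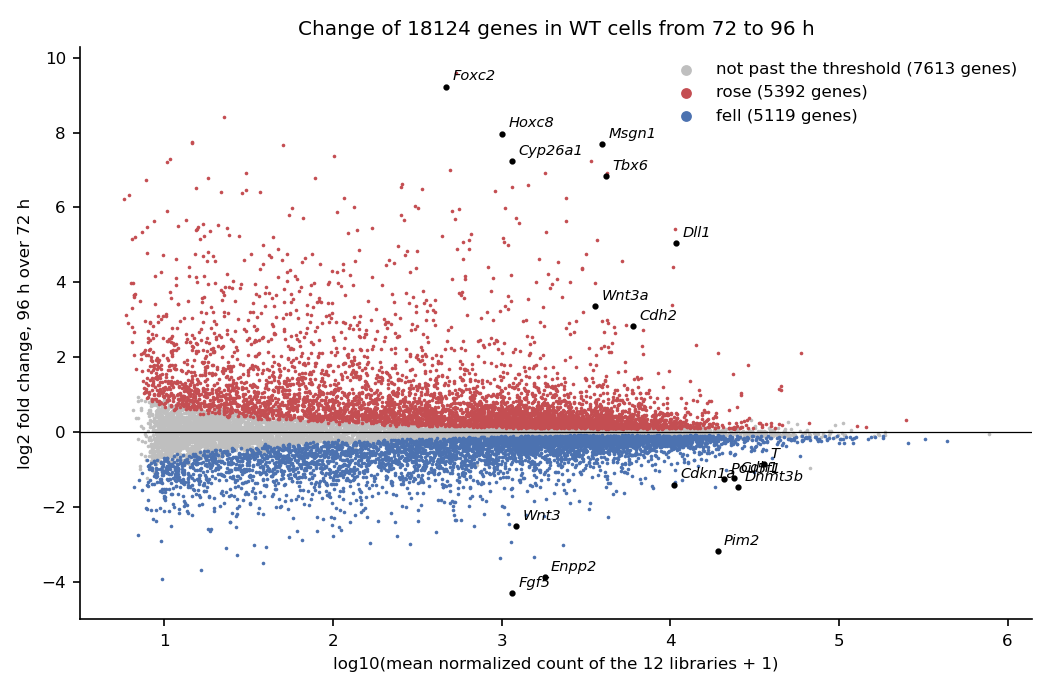
Each point is 1 of 18124 tested genes, with the log10 of its mean normalized count over the 12 libraries plus 1 on the x axis and the log2 fold change of 96 h over 72 h on the y axis; red genes rose, blue genes fell and grey genes did not pass the threshold. The red points reach past 8 on the log2 scale, with Foxc2 at 9.23, and the blue points end near Fgf5 at -4.31.

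Presomitic and paraxial mesoderm genes and Hox genes had the highest median changes of the 34 gene lists, and without replicate 3 the order of the pair was turned (4.86 and 4.90). Of 21 presomitic and paraxial genes 18 passed the low-count filter, and 15 rose, 1 fell and 2 passed in neither direction, against 29.8% and 28.2% of all tested genes. The list's median log2 fold change was 5.07. Msgn1, a basic helix-loop-helix factor that drives presomitic differentiation, ranged over 6.68 to 70.7 normalized counts at 72 h (median 32.7) and 6592 to 9212 at 96 h (median 7766). Every 96 h library lay far above every 72 h library, and the log2 fold change was 7.69 ± 0.19 (edgeR adjusted p = 5.3e-14). Tbx6, the T-box factor that directs cells to paraxial rather than neural fate, ranged over 63.2 to 81.7 normalized counts at 72 h (median 72.1) and 6643 to 9775 at 96 h (median 8447). Its libraries lay close together at each time, and the log2 fold change was 6.83 ± 0.10 (edgeR adjusted p = 3.5e-16). Foxc2, a forkhead factor of the anterior presomitic mesoderm and somites, was near the detection limit at 72 h, with 0 to 4.46 normalized counts at 72 h (median 1.02) and 559 to 1388 at 96 h (median 874). Its log2 fold change of 9.23 ± 0.36 was the largest among the genes named here, and it rests on a 72 h mean of 1.45 normalized counts.

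Genes of the Notch pathway and the segmentation clock rose with them. Of 20 tested genes 14 rose, 4 fell and 2 passed in neither direction, with a median log2 fold change of 1.18, and several are also on the presomitic list. Dll1, the ligand that signals between presomitic cells, went from 635 ± 55.2 to 21011 ± 4810.2 (log2 fold change 5.05 ± 0.13, edgeR adjusted p = 7.2e-14). Hes7, the oscillating repressor at the centre of the clock, ranged over 11.1 to 35.4 normalized counts at 72 h (median 25.8) and 1864 to 2703 at 96 h (median 2204). Lfng, a glycosyltransferase that modifies the Notch receptor, went from 58.8 ± 7.92 to 2010.1 ± 519. In all 3 genes every 96 h library lay far above every 72 h library. Cdh11, a mesenchymal cadherin on the presomitic list, rose from 47.0 ± 12.9 to 363 ± 32.0.

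**Figure D2:**
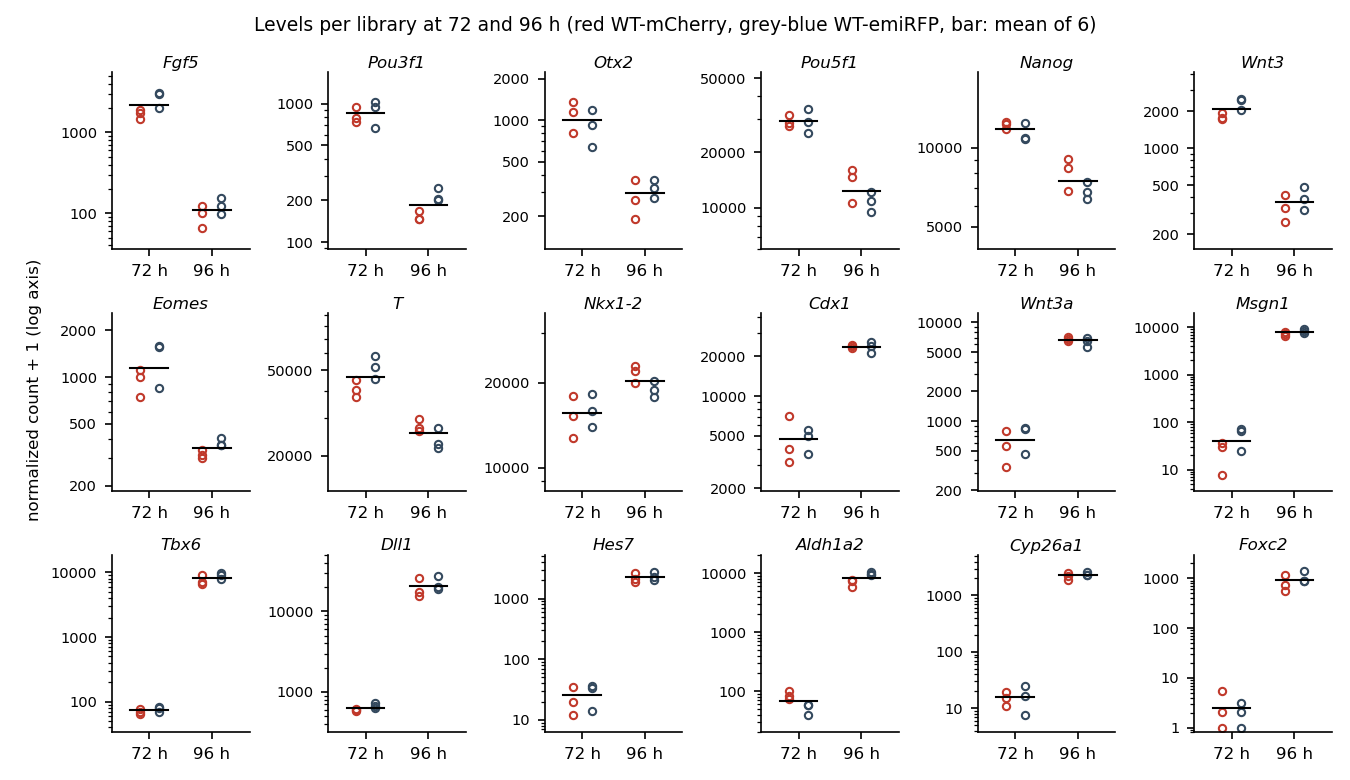
Normalized counts plus 1 on a log axis for 18 genes at 72 and 96 h, each circle 1 library (red WT–mCherry, grey-blue WT–emiRFP) and each bar the mean of 6. The groups overlap for Nkx1-2. The genes were chosen for display, so the separation in the other panels does not describe genes at large. The means of both clones move in the same direction in every panel.

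Promoter sequences are shown for a pair of genes from the 15 largest rises and 1 from the 15 largest falls, because each holds a match to a motif bound by factors named in this report. Each run is the 250 bases before the RefSeq transcription start site on the gene's strand, GRCm38.p6, with the match in capitals. For Msgn1 (chr12:11208949-11209198, minus strand) the capitals mark CTTTGAT, read on the opposite strand, a site of the Wnt effectors TCF and LEF. For Cyp26a1 (chr19:37697558-37697807, plus strand) they mark the direct repeat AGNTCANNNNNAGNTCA bound by retinoic acid receptors, also on the opposite strand. For Fgf5 (chr5:98253934-98254183, plus strand) they mark the T-box motif GGTGTGA, on the opposite strand.

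Msgn1: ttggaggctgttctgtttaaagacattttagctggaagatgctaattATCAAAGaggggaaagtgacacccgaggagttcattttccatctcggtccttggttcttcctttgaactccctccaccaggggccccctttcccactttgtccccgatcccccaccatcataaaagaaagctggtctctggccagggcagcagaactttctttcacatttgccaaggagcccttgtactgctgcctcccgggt
Cyp26a1: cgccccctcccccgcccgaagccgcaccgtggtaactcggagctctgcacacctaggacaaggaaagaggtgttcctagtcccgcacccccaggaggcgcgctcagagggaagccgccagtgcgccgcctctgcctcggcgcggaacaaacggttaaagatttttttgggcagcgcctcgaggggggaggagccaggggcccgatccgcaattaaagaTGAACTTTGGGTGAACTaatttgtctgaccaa
Fgf5: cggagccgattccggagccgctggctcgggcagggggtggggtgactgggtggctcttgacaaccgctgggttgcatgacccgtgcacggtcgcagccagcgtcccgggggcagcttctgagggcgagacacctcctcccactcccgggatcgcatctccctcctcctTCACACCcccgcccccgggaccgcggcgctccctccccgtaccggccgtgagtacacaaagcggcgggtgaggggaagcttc

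These matches are descriptions of letters in a window. Both strands of 300 bases per gene, 250 before and 50 after the start site, were searched in 27025 promoters, and no overlap between motifs was removed. CTTTGAT was found in 3.73% of all promoters, GGTGTGA in 3.96%, the Cdx motif TTTATGG in 2.8% and the direct repeat in 0.218%. Windows were matched for 10 of the 15 largest rises and 13 of the 15 largest falls. Among the rises 1 held the TCF motif (Msgn1), 1 the Cdx motif (Hes7), 1 the direct repeat (Cyp26a1) and 0 the T-box motif. Among the falls 1 held the TCF motif (Pim2), 2 the T-box motif (Fgf5 and Bcl11a), and 0 either of the others. The presomitic regulator Tbx6 held none of the 4 in its window.

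Genes of the caudal epiblast and of axial progenitors, the tail bud cells that supply both spinal cord and mesoderm, had very unequal levels at 72 h and mostly rose. They summed to 97063 to 139536 normalized counts per library at 72 h and 179519 to 205195 at 96 h, and T, Grsf1 and Nkx1-2 held most of the 72 h sum, with means of 46385, 27601 and 15674, against 33.0 for Epha5, an ephrin receptor. Of 15 tested genes 13 rose, 1 fell and 1 passed in neither direction, with a median log2 fold change of 1.63. Cdx1, Cdx2 and Cdx4 encode caudal-type homeobox factors that activate posterior Hox genes. Cdx1 ranged over 3173 to 7096 normalized counts at 72 h (median 4473) and 21166 to 25625 at 96 h (median 23928), without overlap, and its log2 fold change was 2.33 ± 0.15 (edgeR adjusted p = 2.4e-09). Cdx2 rose by 1.63 ± 0.13 and Cdx4, the lowest of the 3 at 72 h with 186 ± 58.2, by 4.02 ± 0.20 on the log2 scale. Wnt3a, the ligand that maintains the tail bud, rose from 638 ± 214 to 6549 ± 513, and Fgf8, its partner ligand, from 2651 ± 614 to 5364 ± 526. Nkx1-2, a homeobox gene of the caudal epiblast, rose by only 0.37 ± 0.08 on the log2 scale, and its libraries overlapped between the times.

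T was the 1 member of this list that fell. It ranged over 37415 to 58403 normalized counts at 72 h (median 45240.5) and 21593 to 29724 at 96 h (median 26346), and fell by 0.85 ± 0.10 on the log2 scale (edgeR adjusted p = 1.8e-06). The ranges did not overlap. At 96 h T still stood at 11058 normalized counts per kilobase of exon, against 13567 for Cdx1 and 4578 for Tbx6. Sox2, a factor shared by pluripotent cells and neural progenitors, rose by 0.48 ± 0.08 on the log2 scale with overlapping ranges.

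Hox genes, which encode the homeobox factors of anteroposterior identity, rose in all 4 clusters. Of 39 Hox genes 32 passed the low-count filter, and 28 rose and 2 fell, with a median log2 fold change of 4.78. Their summed level went from 3025 to 5597 normalized counts per library at 72 h to 35747 to 45205 at 96 h. In the Hoxa cluster (chr6:52155590-52260880) 9 of 10 tested genes rose, in Hoxb (chr11:96194316-96368256) 9 of 10, in Hoxc (chr15:102921103-103036852) 5 of 6 and in Hoxd (chr2:74668310-74765142) 5 of 6. Summed per kilobase of exon, Hoxb was the highest cluster at 96 h, at 9319 normalized counts, after 706 at 72 h, when Hoxa stood at 943.

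By paralog number, groups 1 and 2 had 72 h means of 51.8 to 1692 and a median log2 fold change of 2.85, with all 5 tested genes called. Group 3 had a median of 5.69 over 3 genes, groups 4 and 5 of 4.97 over 7, and groups 6 to 9 of 5.61 over 12, all of them rising. Hoxb9, the most posterior Hoxb gene below group 13, went from 94.3 ± 25.3 to 4712 ± 812, and Hoxc8 from 7.74 ± 5.39 to 1999 ± 634. In groups 10 to 13 only 5 of 12 genes were tested, of which Hoxa10 rose by 1.67 ± 0.27 and Hoxb13 and Hoxc13 fell, from 21.6 ± 5.35 to 11.8 ± 3.81 and from 93.4 ± 10.1 to 48.8 ± 9.77. Without replicate 1, Hoxb13 did not pass (log2 fold change -0.64). The 12 genes of these groups had 96 h means of 0.148 to 66.6. Hox transcripts overlap one another and their antisense partners, and the counting strand is not stated, so levels of single Hox genes are less certain than those of the clusters.

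**Figure D3:**
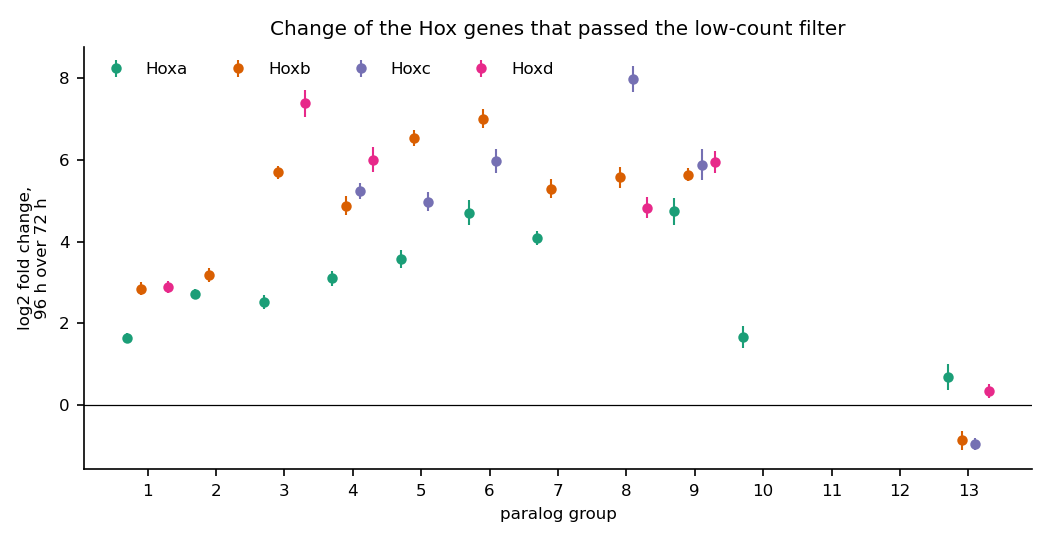
Log2 fold change of 96 h over 72 h on the y axis for the 32 Hox genes that passed the low-count filter, by paralog group on the x axis and cluster by colour; bars are standard errors of the fit. Groups 1 and 2 lie between 1.65 and 3.19, groups 6 to 9 between 4.09 and 7.97, and groups 10 to 13 between -0.95 and 1.67.

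Most retinoic acid genes rose, while the synthesis enzymes were divided. Of 14 tested genes 12 rose, 2 fell and 0 passed in neither direction, with a median log2 fold change of 3.05, and 1 fell without replicate 1. Aldh1a2, the enzyme that makes retinoic acid in somites, ranged over 38.5 to 99.0 normalized counts at 72 h (median 65.6) and 5834 to 10394 at 96 h (median 8406), with log2 fold change 6.91 ± 0.17 (edgeR adjusted p = 5.3e-14). Cyp26a1, which degrades retinoic acid in the tail bud and whose promoter is shown above, ranged over 6.54 to 24.3 normalized counts at 72 h (median 15.2) and 1884 to 2629 at 96 h (median 2284), with 7.24 ± 0.15. Neither gene overlapped between the times. The genes that fell were both of synthesis: Aldh1a3, a related enzyme, from 14.6 ± 4.96 to 6.90 ± 1.74, and Rdh10, which oxidizes retinol, from 820.2 ± 104 to 664 ± 44.1. Stra6, a membrane receptor for retinol uptake, rose from 118 ± 44.2 to 2149 ± 236.

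Primitive streak genes split evenly, with 6 of 13 tested genes rising and 6 falling, against 29.8% and 28.2% of all tested genes (median 0.19, 0.061 without replicate 2). Genes of the early streak were among those that fell. Wnt3, the ligand that initiates it, ranged over 1739.9 to 2501 normalized counts at 72 h (median 1999) and 252 to 483 at 96 h (median 356), and its log2 fold change was -2.51 ± 0.11 (edgeR adjusted p = 3.1e-11). Eomes, a T-box factor of the early streak and anterior mesendoderm, went from 1142 ± 356 to 349 ± 38.7, without overlap between the times. Mixl1, a homeobox factor of the streak, went from 2066 ± 567 to 1536 ± 229, a smaller fall (log2 fold change -0.40 ± 0.14, edgeR adjusted p = 0.023) with overlapping ranges. Its log2 fold change lay between -0.35 and -0.31, past no threshold, without WT–emiRFP replicate 3 at 72 h or replicate 1 or 3 at 96 h. Among those that rose, Snai1, a repressor of epithelial genes, went from 622 ± 132 to 2078 ± 436, and Lhx1, a homeobox gene of streak derivatives and of intermediate mesoderm, from 67.6 ± 28.6 to 2107 ± 340.5. Mesp1, the factor of early cardiac mesoderm, rose only to 51.0 ± 16.4.

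Of 12 Nodal signalling genes 5 rose and 6 fell (median -0.14), where 29.8% and 28.2% of all tested genes did. Nodal itself, the ligand of mesendoderm induction, fell from 6338 ± 795 to 2447 ± 286 (log2 fold change -1.38 ± 0.08). Smad7, an inhibitor of the pathway's receptors, fell by 0.98 ± 0.07, whereas the paralogous secreted Nodal antagonists moved apart: Lefty2 rose from 1338 ± 102 to 6762 ± 2238 and Lefty1 fell from 14469.5 ± 3523 to 9128 ± 1547. Foxa2, which is induced by Nodal and marks endoderm and notochord, fell from 360.4 ± 73.7 to 112 ± 29.9.

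Formative and primed pluripotency genes, which mark the epiblast just before gastrulation, fell: 11 of 17 tested genes were lower and 3 higher at 96 h, with a median of -0.62. Fgf5, an FGF of the primed epiblast, ranged over 1449 to 3112 normalized counts at 72 h (median 1941) and 63.9 to 153 at 96 h (median 111), and its log2 fold change of -4.31 ± 0.16 was the largest fall by the naming rule (edgeR adjusted p = 2.2e-12). At 72 h its 3 WT–mCherry libraries averaged 1689.8 and its 3 WT–emiRFP libraries 2703. Pou3f1, a POU factor of the formative state, went from 852 ± 144 to 184 ± 38.6, and Otx2, a homeobox gene of epiblast and anterior neural tissue, from 1006 ± 269 to 297 ± 69.2. Pou5f1 (Oct4), the core pluripotency factor, fell from 29400.0 ± 3028 to 12313 ± 2538, and in each of these 3 genes the 96 h libraries all lay below the 72 h libraries.

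Naive pluripotency genes moved the other way. Of 14 tested genes 11 rose, 2 fell and 1 passed in neither direction, with a median of 0.53. Fgf4, an autocrine ligand of pluripotent cells that is also made in the streak, rose from 744 ± 236 to 4619 ± 364; Nr0b1, a nuclear receptor of naive cells, from 744 ± 238 to 1728 ± 268; and Prdm14, a regulator of naive and germ cells, from 80.4 ± 24.0 to 259 ± 41.8. Nanog was 1 of the 2 members that fell, from 11784 ± 784 to 7474 ± 1036 (log2 fold change -0.66 ± 0.06). Of the 9 tested primordial germ cell genes 7 rose and 0 fell (median 0.94), among them Tfap2c, a transcription factor also used in trophoblast, from 1137 ± 182 to 3095 ± 252, and Nanos3, an RNA-binding protein of germ cells, from 46.6 ± 13.2 to 212 ± 20.5.

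Most Wnt target and feedback genes were higher a day after the ChIR pulse than at its end. Of 17 tested genes 11 rose, 4 fell and 2 passed in neither direction, with a median of 0.61. Axin2, the standard feedback target, ranged over 7365 to 8533 normalized counts at 72 h (median 7689.7) and 9027 to 10662 at 96 h (median 9637), and its log2 fold change was only 0.32 ± 0.05 (edgeR adjusted p = 4.2e-05), with no overlap. Lef1, a transcriptional effector of the pathway, rose by 0.74 ± 0.07, and Sp5, a zinc finger target, by 0.61 ± 0.14 with overlapping ranges. The secreted inhibitors Dkk1 and Dkk4 rose from 132 ± 21.2 to 536 ± 161 and from 49.4 ± 18.8 to 375 ± 57.4. Nkd2, an intracellular inhibitor of the pathway, rose from 479 ± 54.8 to 2618 ± 794.

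Most Wnt ligands rose, but the one with the most counts did not pass the test. Of 14 tested 10 rose and 2 fell (median 1.14). Beside the fall of Wnt3 and the rise of Wnt3a, Wnt5a, a ligand of convergent extension and tail bud outgrowth, ranged over 214 to 389.7 normalized counts at 72 h (median 294) and 3906 to 5909 at 96 h (median 4921), with log2 fold change 4.00 ± 0.14. Wnt8a, a ligand of the caudal epiblast, averaged 9659 and 9177 (log2 fold change -0.05 ± 0.10, edgeR adjusted p = 0.69). Wnt2, a canonical ligand, rose from 6.50 ± 2.04 to 78.7 ± 17.2. Set per kilobase of exon, Wnt3 fell from 676 to 118 normalized counts while Wnt3a rose from 231 to 2372, so the order of these closely related ligands was reversed.

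Of 8 FGF ligands tested 7 rose and Fgf5 fell. Of 20 tested genes of FGF signalling and its ERK feedback 14 rose, 5 fell and 1 passed in neither direction (median 0.97), where 29.8% of all tested genes rose and 28.2%, a share near that of the list, fell. Fgf3, a ligand of the tail bud, ranged over 21.2 to 40.2 normalized counts at 72 h (median 28.6) and 2496 to 3201 at 96 h (median 2825), with log2 fold change 6.60 ± 0.10 (edgeR adjusted p = 3.5e-16), a rise opposite to the fall of Fgf5. Fgf15 rose from 188 ± 37.2 to 1754 ± 119. For BMP signalling, which patterns mesoderm along the dorsoventral axis, 9 of 16 tested genes rose and 1 fell (median 0.38), against the same shares of all genes. Msx1, a homeobox target of BMP, rose from 185 ± 30.2 to 2087 ± 343, and Id1, an immediate target, from 288 ± 50.0 to 1505 ± 197. The BMP antagonist Nog rose as well, but only to 65.5 ± 6.96. Chrd, another BMP antagonist, was the 1 gene that fell, from 278 ± 63.4 to 192 ± 33.2.

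**Figure D4:**
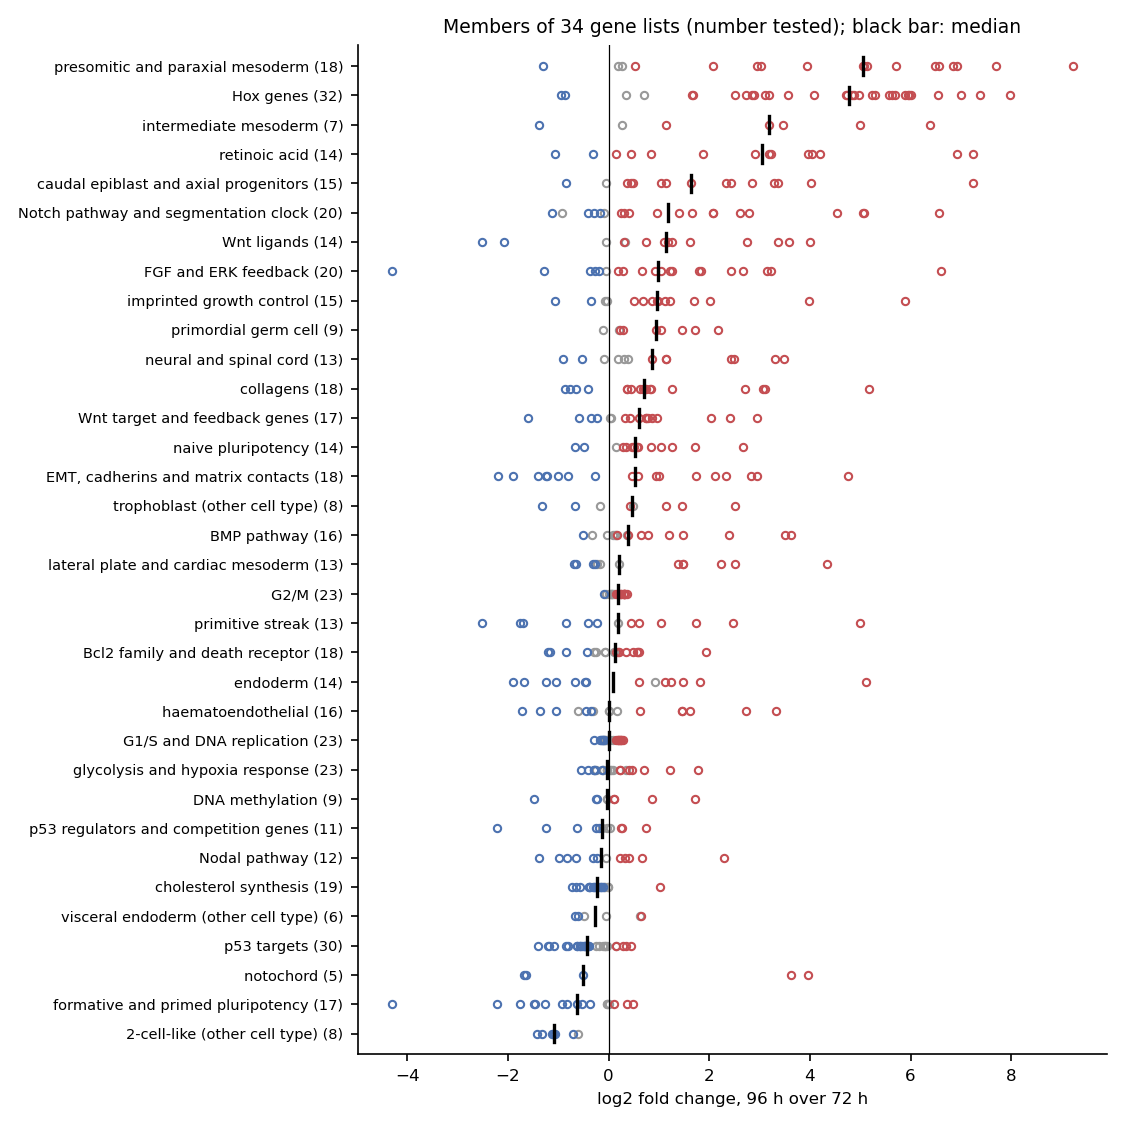
Log2 fold change of 96 h over 72 h on the x axis for the tested members of 34 gene lists, ordered by their median (black bar); red members rose, blue fell and grey did not pass the threshold, and the number tested stands after each name. Presomitic and Hox lists have medians of 5.07 and 4.78, and the formative and primed list of -0.62.

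The cadherin of epithelia fell and that of mesenchyme rose, but Cdh1 stayed above Cdh2 per kilobase. Cdh1 (E-cadherin), the adhesion molecule of epithelia, ranged over 30897 to 35283 normalized counts at 72 h (median 33739) and 12148 to 16494 at 96 h (median 13932), and its log2 fold change was -1.23 ± 0.07 (edgeR adjusted p = 2.8e-10). Cdh2 (N-cadherin), its mesenchymal and neural counterpart, ranged over 1103 to 1877 normalized counts at 72 h (median 1472) and 9408 to 11472 at 96 h (median 10866), with 2.83 ± 0.10. Neither overlapped between the times. Per kilobase of exon, Cdh1 stood at 7324 and Cdh2 at 184 normalized counts at 72 h, and at 3137 and 1309.8 at 96 h. Pcdh19, a protocadherin of paraxial mesoderm and neural tissue, rose from 222 ± 43.2 to 6124 ± 1992. Over the whole list of cadherins, matrix contacts and factors of the epithelial to mesenchymal transition, 10 of 18 tested genes rose and 8 fell (median 0.52), against 29.8% and 28.2% of all tested genes. Of 18 collagen genes 14 rose and 4 fell, the falls near the share of all genes (median 0.70), while their summed level was 30976 to 35371 at 72 h and 32915 to 34814 at 96 h. Col18a1, a basement membrane collagen and the most abundant by counts, fell from 22581 ± 1505 to 14467 ± 689. Among the largest rises were Col13a1, a transmembrane collagen, from 54.5 ± 14.8 to 1976 ± 188 and Col12a1, a fibril-associated one, from 19.2 ± 1.93 to 168 ± 40.8.

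Genes of other lineages were mostly low and gave mixed counts, to be read against the 29.8% of all tested genes that rose and the 28.2% that fell. Of 13 neural and spinal cord genes tested 7 rose and 2 fell (median 0.85). Ncam1, a neural adhesion molecule, rose from 200.1 ± 10.5 to 1973 ± 382, and Hes3, a repressor of neural progenitors, from 148 ± 32.0 to 800.1 ± 56.1. Lateral plate and cardiac genes gave 6 rises and 4 falls of 13 (median 0.20, 0.63 with TMM normalization and 0.11 to 0.29 without a replicate), with the BMP ligand Bmp4 at 273 ± 40.0 and the forkhead factor Foxf1 at 103 ± 23.9 at 96 h. Haematoendothelial genes gave 6 rises and 5 falls of 16 (median 0.01), near those shares. Lmo2, a cofactor of blood and vessel precursors, rose from 319.6 ± 77.3 to 3208 ± 756, whereas Flt1, a VEGF receptor, fell from 240.2 ± 10.4 to 72.5 ± 19.5. Of 7 intermediate mesoderm genes 5 rose and 1 fell (median 3.18), with Lhx1, already named as a streak gene, and the kidney regulator Pax2, from 13.1 ± 3.53 to 145 ± 32.9.

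Endoderm genes gave 6 rises and 7 falls of 14 tested (median 0.08), where 29.8% of all tested genes rose and 28.2% fell, and the median was -0.47 without replicate 1 and 0.22 without replicate 3. The largest changes were in genes that other tissues use as well. Cxcr4, a chemokine receptor of migrating cells, rose from 35.0 ± 15.9 to 1242 ± 549, while Cldn6, a tight junction protein of early epithelia, fell from 4024 ± 334 to 1071 ± 104. Sox17, the defining endoderm factor, rose but reached only 71.8 ± 30.9. Among 5 tested notochord genes 2 rose and 3 fell (median -0.51), and Noto, the defining notochord factor, reached 51.9 ± 21.8 from 3.22 ± 2.83. The 2-cell-like genes fell, 7 of 8 (median -1.09), with Zscan4d from 158 ± 48.0 to 72.2 ± 26.8; it has near-identical copies and only uniquely mapped reads were counted, so single Zscan4 values are uncertain. Trophoblast genes gave 4 rises and 2 falls of 8 and visceral endoderm genes 1 and 2 of 6, with both shares of falls near that of all genes. The visceral endoderm falls were 1 with a replicate block and without replicate 2 or 3.

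Genes activated by p53, the stress-response factor, were lower at 96 h. Of 30 tested p53 targets 4 rose, 19 fell and 7 passed in neither direction, with a median of -0.43, where 29.8% of all tested genes rose and 28.2% fell, and their summed level went from 196497 to 217234 normalized counts per library to 135655 to 155199. Without replicate 2 the rises were 2. Cdkn1a (p21), the cell cycle inhibitor, ranged over 14169 to 16908 normalized counts at 72 h (median 15363) and 4903 to 6114 at 96 h (median 5858), and its log2 fold change was -1.41 ± 0.05 (edgeR adjusted p = 1.4e-12). Pmaip1 (Noxa), a pro-apoptotic Bcl2 family member, fell from 4786 ± 1253 to 2049.9 ± 386, Plk2, a stress-induced kinase, from 5681 ± 246 to 2524 ± 295, and Mdm2, the ligase that degrades p53, from 9788 ± 380.3 to 6357 ± 485. None of these 4 overlapped between the times. Trp53 itself stayed at 16508 ± 1275 and 16242 ± 497 (log2 fold change -0.02 ± 0.05, edgeR adjusted p = 0.69), and Bbc3 (Puma), another pro-apoptotic target, at 1836 ± 265 and 1741 ± 132 (edgeR adjusted p = 0.42). Trp73, a relative of p53, fell from 2294 ± 119 to 492 ± 50.7.

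The Bcl2 family and death receptor genes gave 9 rises and 4 falls of 18 tested (median 0.12), against 29.8% and 28.2% of all tested genes. Bcl2, which protects from mitochondrial apoptosis, rose from 295 ± 51.5 to 437 ± 61.9 with overlapping ranges. Pro-apoptotic members moved both ways. Bok and Hrk fell, from 1097 ± 84.6 to 612 ± 48.5 and from 282 ± 48.0 to 127 ± 32.0, as did Pmaip1 and Bax. Bcl2l11, Bmf and Bad rose, by 0.58 ± 0.05, 0.35 ± 0.06 and 0.20 ± 0.08 on the log2 scale. Among regulators of p53 and genes linked to cell competition, 3 of 11 rose, near the share of all genes, and 5 fell (median -0.13). Mycn, the Myc factor of posterior progenitors, rose by 0.74 ± 0.08, Trim24, a ligase that targets p53, by 0.27 ± 0.04, and Dnm1l, which divides mitochondria, fell by 0.18 ± 0.05 with overlapping ranges and did not pass without replicate 2 or 3 (log2 fold changes -0.17 and -0.12).

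Cell cycle genes changed little. The 23 G2/M genes included 15 that rose and 1 that fell (0 without replicate 1 or 2), but the median log2 fold change was 0.19, with Aurkb, a mitotic kinase, at 0.36 ± 0.05 and Cenpf, a kinetochore protein, at 0.33 ± 0.06. The 23 genes of G1/S and DNA replication gave 8 rises and 7 falls (median 0.0038), near the 29.8% and 28.2% of all tested genes, the falls being 4 without replicate 1 and 3 without replicate 2. Ccne1, a cyclin of S phase entry, fell by 0.29 ± 0.04 and E2f1, a factor that activates replication genes, rose by 0.25 ± 0.05.

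Metabolic and chromatin genes gave a few large changes. Of 23 glycolysis and hypoxia genes 7 rose and 6 fell (median -0.02), shares near the 29.8% and 28.2% of all tested genes. The glucose transporters had the largest changes: Slc2a1 (GLUT1) went from 12962 ± 712 to 44702 ± 3747 and Slc2a3 (GLUT3) from 27525 ± 4458 to 63788 ± 3208. Of 19 cholesterol synthesis genes 14 fell and 1 rose (median -0.23), with Pmvk, a mevalonate pathway kinase, at -0.73 ± 0.07, Lss, which closes the sterol ring, at -0.65 ± 0.04, and Hsd17b7, a later enzyme, at 1.03 ± 0.04. Among 9 DNA methylation genes 4 rose and 3 fell (median -0.03), with 2 rises without replicate 2 or 3. The de novo methyltransferase Dnmt3b ranged over 32080.2 to 41038 normalized counts at 72 h (median 37001) and 12074 to 14597 at 96 h (median 13329.6), and its log2 fold change was -1.48 ± 0.06, while Tet2 and Tet3, which oxidize methylcytosine, rose from 682 ± 121 to 2227 ± 108 and from 1665 ± 151 to 3015 ± 353.

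Imprinted growth genes rose, 11 of 15 tested against 2 that fell (median 0.95). Igf2, the fetal growth factor, went from 15.3 ± 4.68 to 996 ± 686 and Dlk1, a Notch-related inhibitor of differentiation, from 112 ± 19.4 to 457 ± 69.8. At 96 h Igf2 averaged 433 ± 58.7 in WT–mCherry and 1559.9 ± 470.3 in WT–emiRFP libraries (SD, n = 3 each), without overlap. H19, the noncoding RNA next to Igf2, was higher in WT–mCherry libraries at both times. In WT–mCherry libraries it went from 770.1 ± 177 to 12894 ± 3778, and in WT–emiRFP libraries from 43.1 ± 29.8 to 567 ± 97.8 (SD, n = 3 each). Its log2 fold change over both clones was 3.98 ± 0.20, and the ranges of the 2 times overlapped over both clones but not within either.

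The 15 largest rises also held genes outside these lists. Kif26b, a kinesin-like protein of cell adhesion and kidney development, rose from 29.3 ± 7.61 to 3578 ± 954, and Acta2, the actin of smooth muscle, from 4.93 ± 1.30 to 509 ± 162. Sv2b, a synaptic vesicle protein, rose from 1.23 ± 0.99 to 154 ± 44.1. No 72 h library of these 3 genes reached the level of any 96 h library.

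Among the 15 largest falls, Pim2, a survival kinase, was the most abundant. It ranged over 27944 to 40488 normalized counts at 72 h (median 34576) and 2278 to 5837 at 96 h (median 3606), with log2 fold change -3.19 ± 0.19 (edgeR adjusted p = 6.9e-10). Enpp2 (autotaxin), the enzyme that makes lysophosphatidic acid, went from 3370.3 ± 857 to 223 ± 68.1, and Slc27a2, a fatty acid transporter, from 1772 ± 156 to 171 ± 41.2. Nrcam, a neuronal adhesion molecule, and Chst15, a sulfotransferase of chondroitin chains, fell from 4116 ± 592 to 499 ± 55.5 and from 2849 ± 421 to 277 ± 91.7. Several other names on the list are best known from neurons or lymphocytes. Bcl11a and Bcl11b, zinc finger repressors, fell from 707 ± 67.6 to 111 ± 22.6 and from 419 ± 23.7 to 61.0 ± 7.03, Dcx, a microtubule protein of migrating neurons, from 114 ± 17.3 to 15.3 ± 8.46, and Brinp1, a neural protein, from 104 ± 11.9 to 16.6 ± 4.23. Grm6 (a glutamate receptor), Mmp25 (a matrix metalloproteinase), Calcr (the calcitonin receptor), Btn1a1 (a butyrophilin) and Thsd7a (a thrombospondin domain protein) completed it, with log2 fold changes of -3.00, -2.94, -2.78, -2.63 and -2.54.

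The 48 h and 120 h libraries of the same cells, 6 per time, place this day in the time course. Of the 15 largest rises 12 had their highest mean at 96 h and 3 were higher still at 120 h; of the 15 largest falls 7 had stood higher at 48 h than at 72 h. Means at 48, 72, 96 and 120 h were 0.672, 38.6, 7829 and 103 for Msgn1 and 64.9, 72.2, 8258 and 598 for Tbx6. Both thus peaked at 96 h, whereas Foxc2 continued upward, with 2.53, 1.45, 935 and 2448. T had its highest mean at 72 h, with 56.9, 46385, 25599 and 1894, and so did Cdkn1a, with 2417, 15274, 5755 and 3253. For Fgf5 the mean was lower at each of the first 3 times, with 4120.5, 2196, 109.6 and 125. All 11 Wnt target genes that rose to 96 h had their highest mean there, as did 11 of the 13 caudal epiblast genes that rose, against 3 of 14 collagens and 1 of 11 naive pluripotency genes. These are orders of means, with no test.

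**Figure D5:**
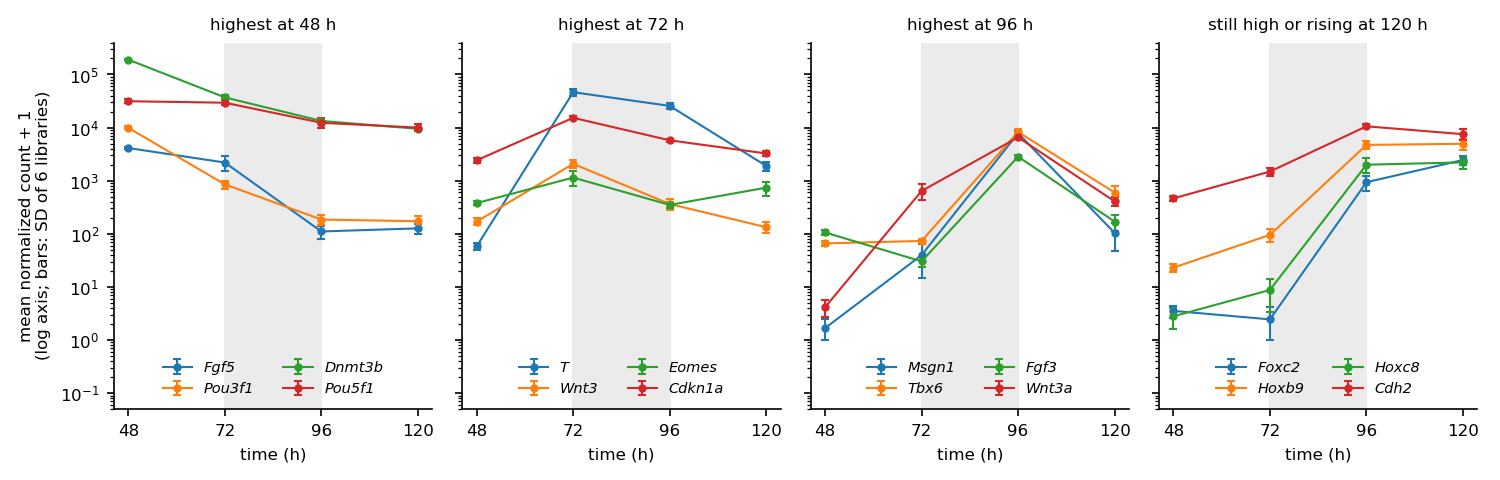
Mean normalized count plus 1 of 6 WT libraries on a log axis against time from 48 to 120 h, with SD as bars and the compared day shaded; panels group 16 genes by the time of their highest mean or their course. Msgn1, Tbx6, Fgf3 and Wnt3a peak at 96 h, T, Wnt3, Eomes and Cdkn1a at 72 h.

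The clones gave much the same account. Fitted alone, WT–mCherry libraries gave 8094 called genes and WT–emiRFP libraries 7657, of which 6332 were shared, 78.2% of the former and 82.7% of the latter, and 6330 of the shared genes changed in the same direction. No gene passed edgeR's test of the clone by time interaction (0 of 18124, 0%), which had 3 libraries per clone and time. An unadjusted p under 0.05, which about 0.05 of genes reach when nothing differs, was found for 1020 genes. DESeq2 called 21, the fit with a replicate block 4 and the fit with no low-count filter 163. Likewise, the change of WT–mCherry cells was tested between WT + WT gastruloids and those in which they grew beside p53KO–emiRFP cells. Here edgeR called 0 of 18182 genes (0%), with 1121 at an unadjusted p under 0.05 and 25 called by DESeq2, while 38 were called with the replicate number as a block and 248 with no low-count filter.

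The change of p53KO–emiRFP cells over the same day, by contrast, differed from that of WT–emiRFP cells in 2555 of 18065 genes (14.1%; edgeR's genotype by time interaction, 3 libraries per group). The p53KO–emiRFP clone derives from the WT–emiRFP clone, carries a homozygous frameshift insertion in exon 4 of Trp53, and grew beside WT–mCherry cells that outnumbered it at seeding, so genotype and neighbours cannot be told apart. The count rests on all 3 replicates: it was 422 without replicate 1, 773 without replicate 2 and 1572 without replicate 3, and 4249 with a replicate block. Trp53 itself averaged 15944 ± 1234 at 72 h in WT–emiRFP and 1721 ± 179.8 in p53KO–emiRFP cells. T went in WT–emiRFP cells from 51830.5 ± 6454 to 23726 ± 2782 and stood at 42853 ± 2119 and 41478 ± 3726 in p53KO–emiRFP cells, a difference of the changes of 1.08 ± 0.14 on the log2 scale (edgeR adjusted p = 2.4e-04). Aldh1a2 went from 50.8 ± 10.7 to 9762 ± 603 in WT–emiRFP cells, against 103 ± 12.6 and 2788 ± 467 at the same times in p53KO–emiRFP cells, a difference of -2.83 ± 0.23 (edgeR adjusted p = 9.3e-06). The rise of Tbx6 was smaller in p53KO–emiRFP cells by a difference of -0.87 ± 0.24 (edgeR adjusted p = 0.027), and for Msgn1 the difference of -1.10 ± 0.40 did not pass (edgeR adjusted p = 0.089).

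For p53 targets the differences were gene by gene. Cdkn1a went from 15929.5 ± 847 to 5971 ± 245 in WT–emiRFP cells, and stood at 6135 ± 335 and then 2182 ± 326 in p53KO–emiRFP cells, lower at both times but with a difference of the changes of only -0.08 ± 0.12 (edgeR adjusted p = 0.74). Mdm2 went in WT–emiRFP cells from 9635 ± 406 to 6677 ± 465 and stood at 2594 ± 96.3 and 2628 ± 85.1 in p53KO–emiRFP cells, a difference of 0.55 ± 0.08 (edgeR adjusted p = 8.3e-04). Bbc3 stood at 1941 ± 280.2 and 1794 ± 167 in WT–emiRFP cells, whereas p53KO–emiRFP cells had 338 ± 28.2 at 72 h and 656 ± 43.4 at 96 h, a difference of 1.07 ± 0.15 (edgeR adjusted p = 5.4e-04). Pmaip1 was instead higher in p53KO–emiRFP cells, at 7393 ± 60.9 and 4381 ± 290.5, than in WT–emiRFP cells, at 3656 ± 294 and 1718 ± 100.1, a difference of the changes of 0.33 ± 0.09 (edgeR adjusted p = 0.029). Gjb5, a gap junction gene, had the largest positive difference among the genes named for this test, 2.66 ± 0.22, from 15.3 ± 2.55 to 90.0 ± 11.1 in p53KO–emiRFP cells against 206 ± 17.5 and 191 ± 13.2 in WT–emiRFP cells.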

How the data were processed

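Poly(A) RNA of sorted cells was sequenced on stranded libraries. The authors trimmed reads with Trim Galore 0.6.7, aligned them with STAR 2.7.11b to GRCm38.p6 and deposited counts of uniquely mapped reads per gene; the strand column taken is not given in the sources used here. Counts of the 69 libraries were divided by median-of-ratios size factors (0.82 to 1.125 for the 12 libraries used). Genes were filtered with filterByExpr and tested with edgeR 4.0.16 (glmQLFit and glmQLFTest, R 4.3.3), time with clone as covariate, Benjamini-Hochberg over all tested genes, threshold 0.05. Differences between clones, neighbours and genotypes were interaction terms. A value after a log2 fold change is its standard error. The fits, tested on simulated data, were repeated with DESeq2 1.42.0, limma 3.58.1 (voom) and glmTreat. Alternatives were TMM, other size factors, no filter, single clones, clones summed per pool, a pool block, a replicate block, all libraries, and libraries left out.

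Named genes were the 15 largest rises and falls among annotated protein-coding genes with a mean of at least 100 normalized counts at the higher time and 1 direction in all 6 pairs of libraries, the 3 members of each list with the largest called change and a mean of at least 50, the 5 largest differences of each interaction test, and a fixed set of regulators with all Hox genes; 2 genes that the rule names are not reported here. Aldh1a3, Rdh10, Wnt8a, Lefty1, Epha5, Col18a1, Chrd, Bax, Bcl2l11, Bmf and Bad were added after their values were seen. Members, lists and this rule were chosen with earlier results of these data known. Replicates are 3 per group, which the study describes as experiments run at separate times; the labels do not say whether a replicate number marks the same experiment at both times. The 2 most alike of the 12 libraries held the same count in 6.08% of genes, so no column was a copy of another. Promoter windows came from RefSeq, GRCm38.p6. Levels per kilobase use exon length.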

Additional observations from a re-analysis of the deposited data

Results flagged for a closer look

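In groups of 6 libraries, the lowest or highest was compared with its nearest neighbour, and a gap over 0.625 of the range set the library apart. Of 234 groups of named genes 5 had such a library, 2.14%, where chance gives about 5%. At 96 h, Cdkn1a stood at 4903 in WT–mCherry replicate 3 with the next library at 5688, Col13a1 at 2346 (highest, WT–emiRFP replicate 2) with the next at 1965, Hes3 at 691 (lowest, WT–emiRFP replicate 1) with the next at 793, and Mesp1 at 82.3 (highest, WT–emiRFP replicate 3) with the next at 54.4. At 72 h Kif26b stood at 43.6 in WT–emiRFP replicate 3, with the next at 30.1. No library was set apart in more than 1 gene.

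The change from 72 h to 96 h differed between p53KO–emiRFP and WT–emiRFP cells in 2555 genes. Among the genes named for this test, the largest differences of the log2 changes were -3.28 for 6530402F18Rik, -3.21 for 2610528A11Rik, -3.00 for Gm9899, -2.83 for Aldh1a2 and 2.66 for Gjb5. Among genes fixed for other reasons, the difference was -0.87 for Tbx6, 1.08 for T, 1.07 for Bbc3, 0.55 for Mdm2 and 0.33 for Pmaip1. 6530402F18Rik went from 2.54 ± 1.63 to 106 ± 42.7 in WT–emiRFP cells, while p53KO–emiRFP cells had 9.40 ± 3.35 at 72 h and 37.6 ± 11.8 at 96 h (SD, n = 3 per group). Genotype and neighbours cannot be told apart in this test.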

How the results depend on the processing

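The counts of 5392 rises and 5119 falls stayed within 1.5 times under every alternative except the glmTreat test against a 2-fold change, which gave 1340 genes, 989 up and 351 down. No gene was called in opposite directions between the main setting and any alternative. TMM gave 5331 and 5200, DESeq2 5422 and 5188, the clones summed per pool 4812 and 4740, and voom with the pool as block 4944 and 4671. Leaving out a replicate number gave 8831 to 9540 genes, and leaving out a library 10052 to 10599. Same-numbered libraries of the 2 times deviated together only in part (correlation over 13652 genes -0.135 to 0.306), although 9 of 12 libraries correlated best with their own number, so the numbers were not taken as pairs. With a replicate block 11145 genes were called, 5656 up and 5489 down.

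The difference between the clones, 0 genes, became 163 with no filter (111 positive, 52 negative), 21 with DESeq2 (15 and 6), 4 with the replicate block (3 and 1) and 0 to 3 without a replicate. By neighbour, 0 became 248 with no filter (206 and 42), 25 with DESeq2 (19 and 6) and 38 with the replicate block (30 and 8), and stayed 0 without a replicate. By genotype, 2555 became 4249 with the replicate block (2274 negative) and 422 to 1572 without a replicate (206 to 789 positive, 216 to 783 negative). The cause was not tested.

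Of 123 tested genes named in the text and recomputed, 28 lost their call under at least 1 of 27 alternatives. The glmTreat test asks for more than 2-fold, so genes with smaller changes lost it there by construction. Hrk, Zscan4d, Fgf8 and Hsd17b7 lost it there with log2 fold changes of -1.17, -1.13, 1.03 and 1.03, past 2-fold. Under the other alternatives Dnm1l, Hoxb13 and Nkx1-2 lost it in WT–emiRFP alone, Dnm1l also without replicate 2 or 3 and Hoxb13 without replicate 1. Mixl1 lost it with DESeq2, at a threshold of 0.01, in WT–mCherry alone, without replicate 1 or 3, and without any 1 of 3 WT–emiRFP libraries (72 h replicate 3, 96 h replicates 1 and 3). Uncalled genes turned sign near 0: Trp53 lay between -0.054 and 0.014 when a replicate number or a library was left out and at 0.014 in WT–emiRFP alone, and H2bc14 moved to 0.00033 in WT–mCherry alone but gained a call with no filter (-0.15, edgeR adjusted p = 0.046). Of 510 recomputed list counts and medians 39 moved. Levels under 10 normalized counts, such as Foxc2 at 72 h, rest on few reads.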

Other observations

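By change in normalized counts rather than fold, other genes came first; they were chosen after their values were seen. Fn1, the fibronectin of the mesodermal matrix, went from 22111 ± 1737 at 72 h to 97642 ± 27664 at 96 h (log2 fold change 2.11 ± 0.13), more counts than any other gene gained. Nr6a1, an orphan nuclear receptor of the trunk, went from 7248 ± 748 to 31344 ± 2336, Prtg, a cell adhesion protein of the early mesoderm and neural plate, from 11969 ± 1636 to 35028 ± 5691, and Grsf1, an RNA-binding protein on the caudal epiblast list, from 27601 ± 6711 to 60958 ± 4863. Peg10, an imprinted gene of retrotransposon origin, rose from 28596 ± 4955 to 62093 ± 2801. The first losses in this order were small in fold: Hsp90ab1, a chaperone, fell by 0.24 ± 0.04 on the log2 scale and Gapdh, the glycolytic enzyme often used as a reference, by 0.29 ± 0.05. Later losses were not all small, and Pim2, already named, changed by -30561 normalized counts at a log2 fold change of -3.19 ± 0.19. Lama5, a laminin chain of epithelial basement membranes, fell from 42322 ± 4298 to 20182 ± 1267, and Fasn, the fatty acid synthase, from 71938 ± 4003 to 46336 ± 3122.

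By annotated class, 4714 of 14783 protein-coding genes rose and 4669 fell, where 29.8% of all tested genes rose and 28.2% fell. Of 540 long intergenic noncoding genes 161 rose, near that share, and 97 fell. Of 513 antisense genes 126 rose and 48 fell. In both of these classes the falls were under the share of all tested genes. Of 814 processed pseudogenes, which share sequence with their parent genes, 53 rose and 99 fell. The counting strand of antisense genes is not stated, so reads of their partners cannot be told apart from theirs.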
